A study of Rattus norvegicus with 6 samples.

Results

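The genes described here are 10 textbook targets of the transcription factor p53, measured in the renal cortex of rats given o-nitroanisole or its vehicle. They were taken by symbol, as every non-control probe whose RefSeq accession belongs to Cdkn1a, Mdm2, Ccng1, Phlda3, Bax, Btg2, Gdf15, Aen, Zmat3 or Sesn1. In all, 18 of 61657 non-control probes matched, for 9 of the 10 genes, out of 15284 genes named on the array. No probe was matched to Sesn1 by accession, so that gene has no value. All animals were male Sprague-Dawley (Crl:CD(SD)) rats, bought at 5 weeks of age and kept on a basal diet. The corn oil group (3 rats) received the vehicle for 4 weeks, and the o-nitroanisole group (3 rats) received that nitroaromatic compound at 400 mg/kg/day for 4 weeks. Total RNA of each rat was hybridised to 1 one-colour (Cy3) Agilent oligonucleotide array, and the labels call the 3 arrays of a group biological replicates.

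In unstressed cells p53 is kept scarce by MDM2, a ubiquitin ligase that is itself a p53 target. DNA damage stabilises p53, which then raises transcripts for cell cycle arrest, apoptosis, DNA repair and its own feedback control. A nitroaromatic compound can be reduced and oxidised to species that react with DNA, and renal tubule cells meet such compounds while clearing them from blood.

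The scanner software marked 66.4% to 71.5% of the non-control probes of an array as well above background, and Pearson correlations between arrays across tested probes lay between 0.986 and 0.992. Each group had a slide and a scan of its own (slide 1 and scan 1 for corn oil, slide 2 and scan 2 for o-nitroanisole), so treatment cannot be told apart from slide or scan in any value below. Proximal tubule markers were abundant on every array, with summed relative signals (defined below) of 1672.8 to 1703.3 in corn oil and 1698.1 to 1747.5 in o-nitroanisole over 9 genes. The adrenal markers Cyp11b1 and Star and the fat marker Lep had no probe bright enough to be tested. Adipoq, another fat marker, cleared background on all 6 arrays, at 0.798 to 0.968 in corn oil and 0.863 to 0.925 in o-nitroanisole. Sums of 5 hepatocyte markers varied between arrays, at 6.54, 2.53 and 0.746 in corn oil and 1.94, 3.96 and 1.41 in o-nitroanisole. Red blood cell markers lay higher without overlap after o-nitroanisole in 6 of 6 tested genes, against 20.8% of all genes. Their summed relative signals were 168 to 194 in corn oil and 262 to 313 in o-nitroanisole. With default moderation 0 of the 6 passed an adjusted p of 0.05, and 2 of 6 did with a variance trend and robust moderation. The 6 did not share 1 pattern over the o-nitroanisole arrays. Slc4a1 was highest in replicate 2 (9.82, 14.3 and 10.4), where Hbb (295, 243 and 289) and Ahsp (3.25, 1.83 and 2.58) were lowest. The sum of the collecting duct markers described below was also highest in replicate 2 (137, 154 and 140). How much of the Slc4a1 signal came from red blood cells was not tested. Both tested neutrophil markers, S100a8 and S100a9, also lay higher without overlap, against 20.8% of all genes, with sums of 0.241 to 0.274 and 0.518 to 0.841. With default moderation 0 of the 2 passed, and 2 did with trend and robust moderation, against 2.13% of all genes. Cxcr2 and Ngp were not well above background on any array. By brightest probe, the highest and lowest of all markers were Ahsp, a red blood cell gene (log2 difference 1.98 ± 0.36), and Mrc1, a macrophage gene (-0.85 ± 0.41). The Mrc1 groups overlapped, and its difference was -0.44 without o-nitroanisole replicate 3. The 3 loop of Henle and distal tubule markers summed to 475 to 520 in corn oil and 405 to 431 in o-nitroanisole, without overlap. Umod made up most of that sum (mean 473 in corn oil, log2 difference -0.25 ± 0.07). Slc12a3 (0.39 ± 0.20) and Calb1 (0.64 ± 0.33) lay above 0 with overlapping groups. Sums of the 6 collecting duct markers did not overlap either (119 to 128 and 137 to 154), with 4 genes above 0 and 2 below. Aqp2 was the brightest of them (mean 68.8 in corn oil, log2 difference 0.26 ± 0.10), but its second probe gave 0.03 ± 0.09 with overlapping groups. Slc4a9 had the highest difference of the 6 (0.69 ± 0.10). Sums overlapped for macrophage markers (3.02 to 3.41 and 2.65 to 3.5), although the log2 difference was below 0 for 4 of 4 tested macrophage genes, and for lymphocyte markers (0.734 to 1.08 and 0.794 to 1.03). In bulk tissue, fewer cells of a type and less RNA per cell cannot be told apart, and the part of blood cell or tubule segment RNA in the p53 target values was not tested.

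p53 binds a pair of half-sites, each a decamer of purines, C, weak bases, G and pyrimidines. Of the 10 genes, 8 had a promoter window in the RefSeq table of assembly GRCr8, which spans 250 bases before to 50 bases after a transcript start; Bax and Zmat3 were not matched there. The 8 genes had 9 windows, and an exact half-site lay in 4 of the 9 (Aen, Ccng1, Cdkn1a and Sesn1), against 7.98% of all 33469 windows. The genes were listed as known p53 targets, so this share is not a test. In Ccng1 and Cdkn1a the best pair of half-sites, with a spacer of up to 13 bases allowed, had 1 mismatch in its 20 bases, as few as in 1% of all windows. In Aen and Sesn1 it had 2, as few as in 9.84%. Aen and Ccng1 are printed because they have an exact half-site and the groups did not overlap at their brightest probes, and Cdkn1a because it carries such a pair and its brightest probe lay near no difference. Sequences read 5′ to 3′ on the strand of the gene, and capitals mark the pair of half-sites with the fewest mismatches, which adjoin without a spacer. The motif equals its own reverse complement, so both strands were searched at once. The exact half-site began 30 bases before the start of Aen (chr1:142224283-142224582, plus strand), 232 bases before that of Ccng1 (chr10:25684827-25685126, minus strand) and 201 bases before that of Cdkn1a (chr20:7150682-7150981, plus strand).
Aen: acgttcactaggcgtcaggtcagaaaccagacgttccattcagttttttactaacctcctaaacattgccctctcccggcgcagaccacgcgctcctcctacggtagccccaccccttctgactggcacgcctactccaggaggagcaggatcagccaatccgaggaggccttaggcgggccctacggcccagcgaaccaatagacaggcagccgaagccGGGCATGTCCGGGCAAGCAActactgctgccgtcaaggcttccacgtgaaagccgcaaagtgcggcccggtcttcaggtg
Ccng1: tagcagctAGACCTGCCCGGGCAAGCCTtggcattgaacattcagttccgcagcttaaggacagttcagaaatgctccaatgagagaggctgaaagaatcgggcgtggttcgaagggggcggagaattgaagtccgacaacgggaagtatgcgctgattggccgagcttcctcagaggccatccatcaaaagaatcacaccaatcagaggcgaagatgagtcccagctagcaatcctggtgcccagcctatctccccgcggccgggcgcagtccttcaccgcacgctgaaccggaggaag
Cdkn1a: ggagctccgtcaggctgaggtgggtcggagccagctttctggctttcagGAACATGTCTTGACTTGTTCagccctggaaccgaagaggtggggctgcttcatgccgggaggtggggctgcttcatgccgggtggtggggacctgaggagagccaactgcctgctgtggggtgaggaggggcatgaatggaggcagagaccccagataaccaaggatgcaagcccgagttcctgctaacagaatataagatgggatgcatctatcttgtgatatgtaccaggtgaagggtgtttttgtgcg
The windows of Mdm2, Phlda3, Btg2 and Gdf15 held no exact half-site, and their best pairs had 4 or 5 mismatches. A match is a description of these letters, not a measured binding site, and no match says only that the letters are absent from this window.

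**Figure D1:**
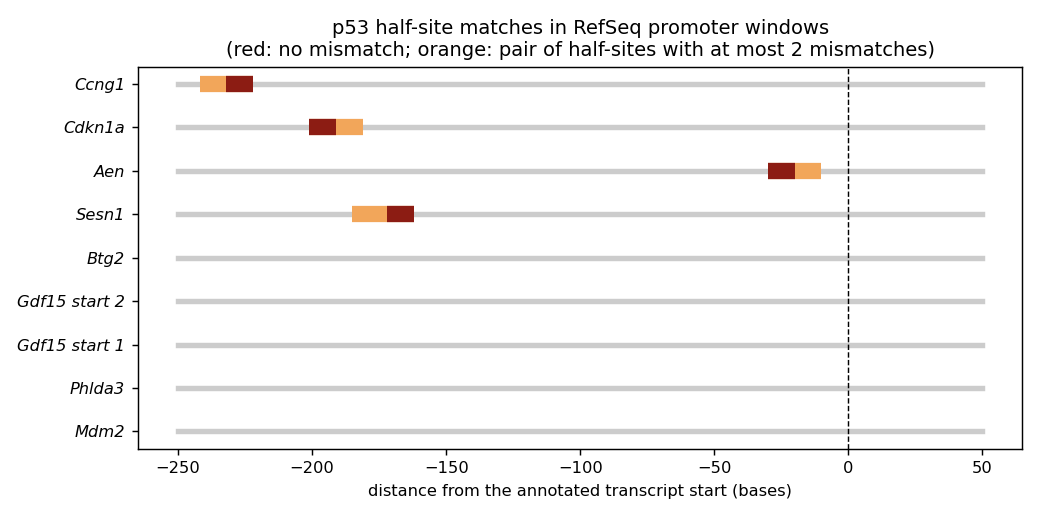
Positions of p53 half-site matches along the RefSeq (GRCr8) promoter windows of the p53 target genes, as distance in bases from the annotated transcript start (dashed line). Red blocks are exact half-sites and orange blocks complete a pair with at most 2 mismatches; Aen, Ccng1, Cdkn1a and Sesn1 carry one, and Gdf15 has 2 annotated starts without one.

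Values are given as relative signal, the background-subtracted intensity of a probe divided by the 75th percentile of its array, in the order of replicates 1, 2 and 3. Differences are log2 of o-nitroanisole over corn oil from limma, with the moderated standard error (SE, n = 3 per group), and p-values were adjusted by the Benjamini-Hochberg method over all 41096 tested probes. A probe was tested if all 3 arrays of either group marked it as well above background, and 17 of the 18 probes were. With limma's default moderation 0 of the 17 passed an adjusted p of 0.05, as did 0% of all tested probes, the smallest adjusted p of any probe being 0.0789. At an unadjusted p under 0.05 there were 7 of the 17, all of them higher after o-nitroanisole, against 19% of all tested probes in either direction and 11.8% higher; 0 were lower, against 7.23%. The groups did not overlap for 7 probes, all higher, against 17.5% of tested probes, and for 0 lower, against 9.74%. The log2 difference was above 0 for 13 of the 17, against 55.9%. By the brightest probe of each gene, 4 of 9 genes (Aen, Ccng1, Mdm2 and Zmat3) were higher at that level, against 14.1% of 11815 genes. Those 4 genes were also the ones whose groups did not overlap, all with higher signals after o-nitroanisole, against 20.8% of genes; 0 were lower without overlap, against 8.88%. The median log2 difference was 0.23 over the 17 probes and 0.03 over all tested probes. Under normexp background correction these medians were 0.08 and 0.03, with 12 of the 17 above 0. The members were chosen with earlier results in view and several share a gene, so these counts describe them and are not a test.

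**Figure D2:**
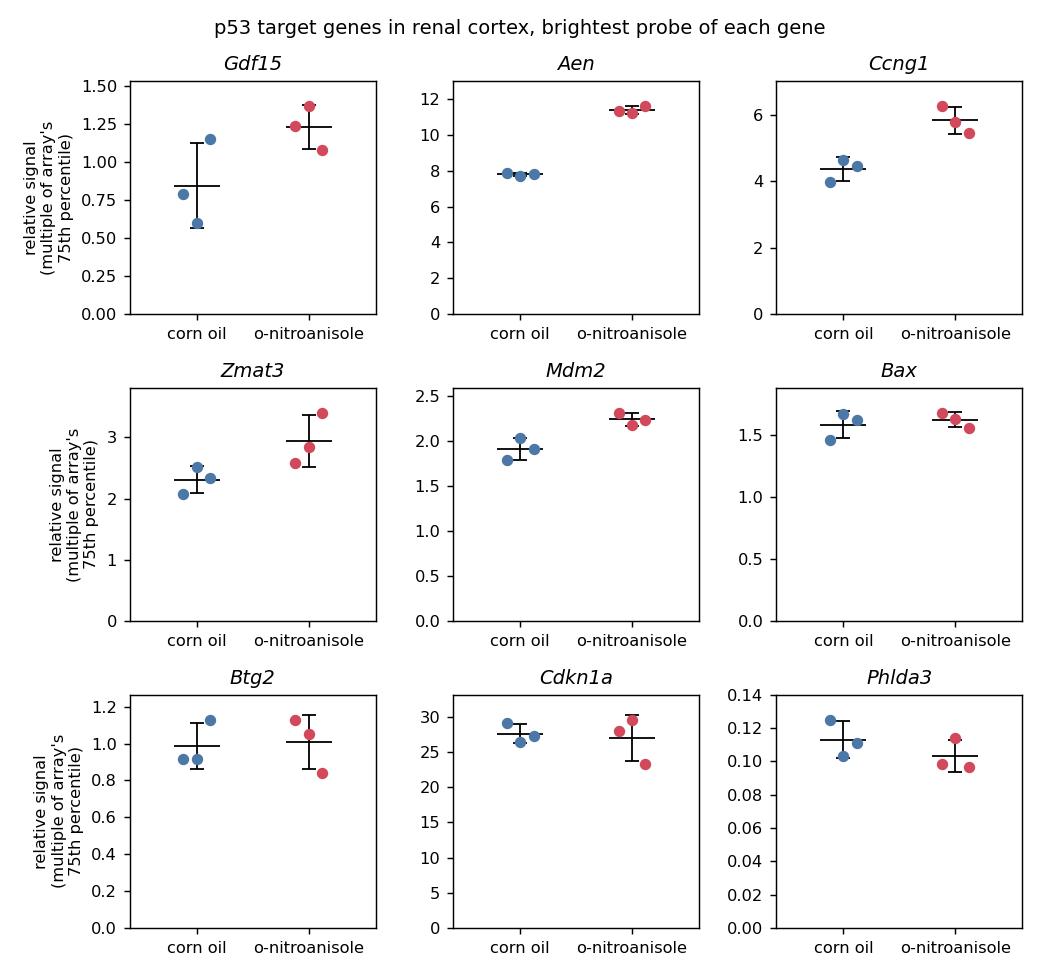
Relative signal (multiple of the array's 75th percentile, linear axis from 0) of the brightest probe of each p53 target gene. Each point is 1 array of corn oil (blue) or o-nitroanisole (red), with the group mean and SD in black (n = 3 per group); the groups separate for Aen, Ccng1, Zmat3 and Mdm2 and overlap for the other 5 genes.

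Among the feedback regulators of p53, no probe of Mdm2, Ccng1 or Zmat3 passed an adjusted p of 0.05 with default or with trend and robust moderation, and the groups did not overlap at the brightest probe of each. Mdm2, the ubiquitin ligase that removes p53, had relative signals of 1.79, 2.03 and 1.91 in corn oil and 2.31, 2.17 and 2.23 in o-nitroanisole by its brightest probe. Every o-nitroanisole array lay above every corn oil array. The log2 difference was 0.23 ± 0.07 (unadjusted p = 0.0193, adjusted p = 0.188 with limma), a 1.17-fold level. The second Mdm2 probe gave 0.374, 0.395 and 0.377 in corn oil and 0.429, 0.445 and 0.468 in o-nitroanisole. Its groups also did not overlap, and its difference of 0.23 ± 0.06 (adjusted p = 0.163) matched that of the first. The difference at the brightest probe was 0.08 ± 0.06 under normexp background correction.

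Ccng1, cyclin G1, which recruits a phosphatase to MDM2, had relative signals of 3.98, 4.66 and 4.47 in corn oil and 6.27, 5.78 and 5.47 in o-nitroanisole. The groups did not overlap, and the log2 difference was 0.42 ± 0.09, a 1.34-fold level with a 95% interval of 0.20 to 0.64 on the log2 scale (unadjusted p = 0.00391, adjusted p = 0.125). A second, dimmer Ccng1 probe read 0.505, 0.547 and 0.496 in corn oil and 3.11, 0.648 and 0.588 in o-nitroanisole. All 3 o-nitroanisole arrays again lay above corn oil, and replicate 1 stood far above the other two. Its difference of 1.04 ± 0.65 (adjusted p = 0.441) was 0.26 without that array, so its size rests on 1 array.

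Zmat3, a zinc finger protein that binds p53 mRNA, had relative signals of 2.08, 2.51 and 2.34 in corn oil and 2.58, 2.84 and 3.4 in o-nitroanisole. The groups did not overlap, but the gap between 2.51 and 2.58 was narrow. The log2 difference was 0.34 ± 0.13 (unadjusted p = 0.0381, adjusted p = 0.236), and 0.23 without o-nitroanisole replicate 3. A second Zmat3 probe cleared background on 1 of 3 corn oil arrays, where it read 0.303 against 0.0149 and 0.0145 on the other two, and on all 3 o-nitroanisole arrays, at 0.0204, 0.0268 and 0.0297. Its difference was -0.67 ± 1.22, and 0.78 without corn oil replicate 2, so its direction rests on that array.

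Among targets that act in cell death, Aen stood apart from Bax and Phlda3. Aen, a nuclease that digests DNA during apoptosis, had relative signals of 7.88, 7.7 and 7.79 in corn oil and 11.3, 11.2 and 11.6 in o-nitroanisole by its brightest probe. The spread within each group was a small part of the gap between them. The log2 difference was 0.55 ± 0.05, a 1.46-fold level with a 95% interval of 0.41 to 0.68 on the log2 scale. Its unadjusted p of 6.79e-05 ranked 25 among the 41096 probes, and its adjusted p was 0.0789 with default moderation. With a variance trend and robust moderation, which called 1.61% of all tested probes, Aen rose (adjusted p = 0.0214) as 1 of the 17 probes and 1 of the 9 genes, against 2.13% of all genes. Leaving out 1 array at a time under that moderation, Aen lost this call without corn oil replicate 1 (adjusted p = 0.0598) or o-nitroanisole replicate 2 (adjusted p = 0.0713), and those fits called 0 to 76 probes in all. It also rose under normexp background correction (adjusted p = 0.0315), which called 0.348% of all tested probes. With each array left out in turn, the difference stayed between 0.53 and 0.56.

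The 3 Aen probes, which carry the same RefSeq accession, did not give 1 answer. The dimmest read 0.368, 0.388 and 0.346 in corn oil and 0.453, 0.433 and 0.471 in o-nitroanisole, without overlap, a difference of 0.30 ± 0.07 (adjusted p = 0.138). The probe second in brightness read 0.882, 0.775 and 0.886 in corn oil and 0.904, 0.847 and 0.813 in o-nitroanisole. Its groups overlapped, with a difference of 0.01 ± 0.08 (95% interval -0.19 to 0.22). The intervals of this probe and of the brightest one, 0.41 to 0.68, do not meet. The files used here do not place the probes on the transcript. With the 3 probes averaged, the Aen difference was 0.29.

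Bax, which opens the outer mitochondrial membrane, had relative signals of 1.46, 1.67 and 1.62 in corn oil and 1.68, 1.63 and 1.56 in o-nitroanisole. The groups overlapped almost fully. The log2 difference was 0.04 ± 0.08, with a 95% interval of -0.15 to 0.23 (adjusted p = 0.828), and it fell below 0 under normexp correction, at -0.04. Phlda3, a repressor of the survival kinase AKT, read 0.125, 0.103 and 0.111 in corn oil and 0.0984, 0.114 and 0.0965 in o-nitroanisole. These groups overlapped too, with a difference of -0.14 ± 0.11 and a 95% interval of -0.40 to 0.13 (adjusted p = 0.529).

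The cell cycle brakes did not differ detectably. Cdkn1a, which encodes the cyclin-dependent kinase inhibitor p21 and is the best known p53 target, had relative signals of 29.1, 26.4 and 27.3 in corn oil and 28, 29.6 and 23.3 in o-nitroanisole. The groups overlapped, and the log2 difference was -0.04 ± 0.11 with a 95% interval of -0.30 to 0.22 (adjusted p = 0.872). It was 0.06 without o-nitroanisole replicate 3, the lowest array. A second probe read 1.06, 0.736 and 1.29 in corn oil and 0.823, 0.752 and 0.583 in o-nitroanisole, a difference of -0.49 ± 0.24 with overlapping groups (adjusted p = 0.336). The third Cdkn1a probe was too dim on all 6 arrays to be tested.

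Btg2, an antiproliferative cofactor of mRNA deadenylation, had relative signals of 0.914, 0.915 and 1.13 in corn oil and 1.13, 1.05 and 0.843 in o-nitroanisole. The groups overlapped, with a difference of 0.03 ± 0.15 and a 95% interval of -0.33 to 0.39 (adjusted p = 0.935). The second Btg2 probe gave 0.03 ± 0.15 as well, and both took either sign when 1 array was left out.

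Gdf15, a secreted stress cytokine of the TGF-beta family, had the widest spread within corn oil among the brightest probes of the 9 genes (SD 0.47 on the log2 scale). Its brightest probe read 0.792, 0.598 and 1.15 in corn oil and 1.24, 1.37 and 1.08 in o-nitroanisole. Corn oil replicate 3 lay above o-nitroanisole replicate 3, so the groups overlapped. The log2 difference was 0.58 ± 0.25, a 1.5-fold level with a 95% interval of -0.03 to 1.19 on the log2 scale (adjusted p = 0.282). It was the highest of the 9 genes, yet ranged from 0.36 without corn oil replicate 2 to 0.83 without corn oil replicate 3. The second probe, at 0.753, 0.619 and 1.06 in corn oil and 1.09, 1.33 and 1.04 in o-nitroanisole, overlapped in the same way and gave 0.53 ± 0.22 (unadjusted p = 0.0498, adjusted p = 0.263).

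**Figure D3:**
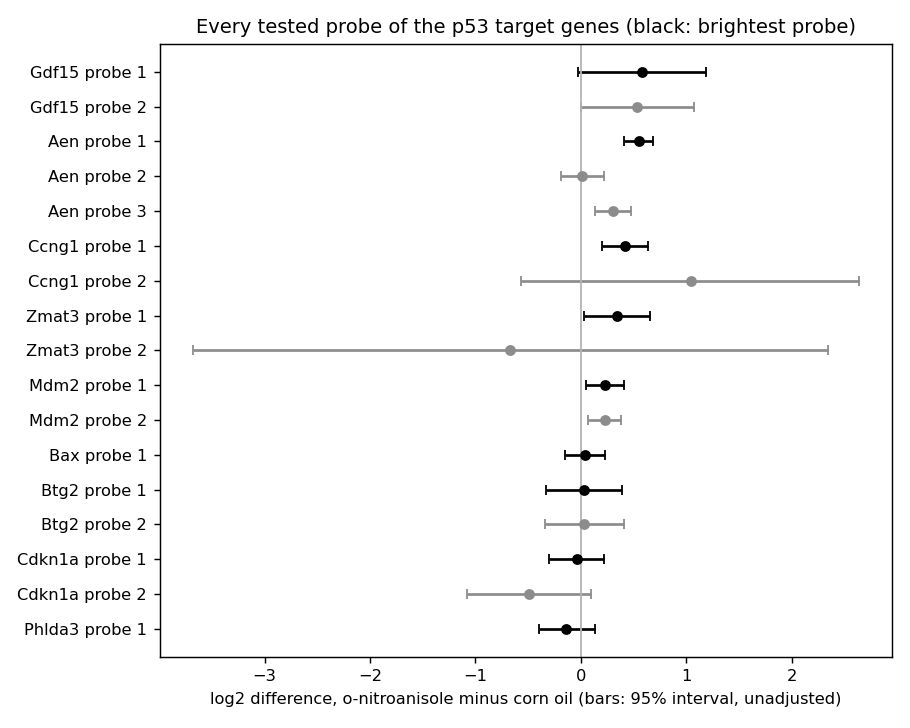
Log2 difference (o-nitroanisole minus corn oil) of the 17 tested probes of the p53 target genes, with unadjusted 95% intervals from limma (n = 3 per group); black marks the brightest probe of a gene and grey its other probes, numbered by brightness. Intervals of both Mdm2 probes and of 2 of the 3 Aen probes lie above 0, while those of Bax, Btg2, Cdkn1a and Phlda3 span 0, and the wide grey bars are the Ccng1 and Zmat3 probes with 1 array far from the rest.

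Further p53 targets were taken from a wider list. Of 35 further targets, 27 had a matched probe and 25 had one that was tested; the median log2 difference by brightest probe was 0.07, against 0.04 over all named genes. None of their 40 tested probes passed the threshold with default moderation or with trend and robust moderation. At an unadjusted p under 0.05, 2 of the 25 genes were higher, against 14.1% of all genes, and 1 was lower, against 6.65%. Of the 25, 20 lay above 0, against 59.1% of all named genes.

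The highest of these were Tp53inp1, a p53 cofactor of stress-induced death and autophagy, and Epha2, an ephrin receptor. Tp53inp1 read 0.407, 0.496 and 0.387 in corn oil and 0.664, 0.497 and 0.514 in o-nitroanisole, groups separated by the small gap from 0.496 to 0.497, with a difference of 0.37 ± 0.15 (adjusted p = 0.264). Epha2 read 4.95, 5.15 and 5.82 in corn oil and 6.64, 7.9 and 5.89 in o-nitroanisole, without overlap. The difference was 0.35 ± 0.13 (adjusted p = 0.228), and 0.35 ± 0.18 with overlapping groups at the second Epha2 probe. The stress kinase Plk3 and the glutaminase Gls2 followed at 0.29 ± 0.19 and 0.28 ± 0.11, both with overlapping groups. At the second Gls2 probe the groups did not overlap (0.23 ± 0.08, adjusted p = 0.202). The lowest was Apaf1, the scaffold of the apoptosome, at 0.223, 0.203 and 0.232 in corn oil and 0.146, 0.165 and 0.184 in o-nitroanisole. All 3 treated arrays lay below all corn oil arrays, with a difference of -0.41 ± 0.11 (adjusted p = 0.153), though the second Apaf1 probe gave -0.16 ± 0.11. The binding protein Igfbp3 (-0.18 ± 0.14) and the ribonucleotide reductase subunit Rrm2b (-0.14 ± 0.10) had overlapping groups. Gadd45a, a damage-induced growth arrest gene, lay at 0.17 ± 0.09 with overlapping groups (adjusted p = 0.392). The death genes Bbc3 (0.02 ± 0.10), Fas (0.07 ± 0.13) and Perp (0.08 ± 0.07) and the repair gene Xpc (0.14 ± 0.10) also overlapped. These last 4 genes were added to the text after their values were seen. Pmaip1, another death gene, had 1 matched probe, which was too dim on all 6 arrays to be tested.

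Of 17 listed genes of the p53 regulatory network, 13 had a matched and tested probe. None of their 28 tested probes passed the threshold in either fit, and by brightest probe 7 lay above 0 and 6 below, against 59.1% of all genes above 0, with a median of 0.05. The groups did not overlap for 4 of the 13 (Hipk2, Rpl5, Rpl11 and Wrap53), all higher, against 20.8% of all genes. Mdm4, the MDM2 relative that masks p53, lay at 0.10 ± 0.10 with overlapping groups, and the p53 kinase Hipk2 at 0.13 ± 0.06 (adjusted p = 0.318). Atm, the kinase that signals DNA breaks, had the lowest value, -0.98 ± 0.70. That value came from corn oil replicate 3, which read 0.355 against 0.0702 and 0.0575 on the other two and 0.0508 to 0.0617 in o-nitroanisole. Without that array it was -0.15, and a second Atm probe gave -0.04 ± 0.12.

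**Figure D4:**
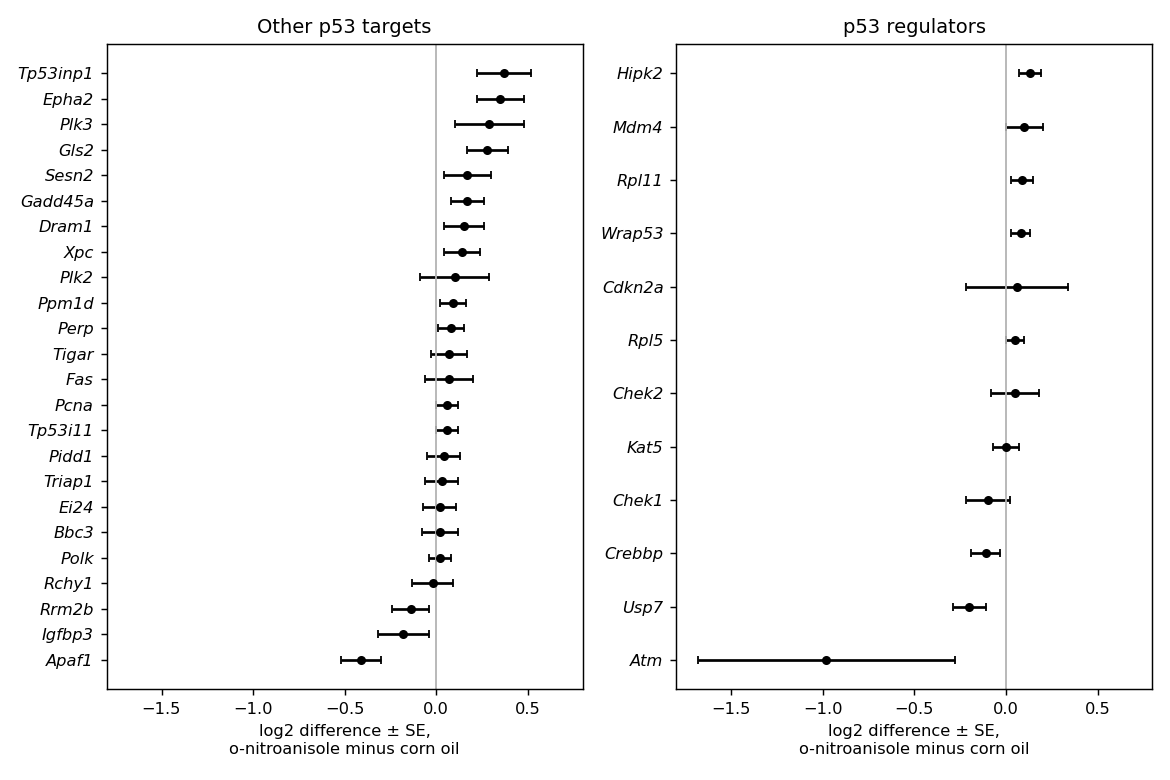
Log2 difference (o-nitroanisole minus corn oil) ± SE by the brightest tested probe of 24 of the 25 further p53 targets (left) and of 12 of the 13 genes of the regulatory network (right), n = 3 per group. Differences of the targets run from -0.41 (Apaf1) to 0.37 (Tp53inp1), and the wide bar of Atm comes from 1 corn oil array.

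The member values depended on the processing to different degrees. With single arrays left out, the brightest probe of Aen stayed between 0.53 and 0.56, Ccng1 between 0.35 and 0.47, and Mdm2 between 0.18 and 0.28. Under the other alternatives the ranges were 0.29 to 0.56 for Aen, 0.38 to 0.73 for Ccng1 and 0.08 to 0.25 for Mdm2. The lowest Aen value and the highest Ccng1 value came from averaging the probes of the gene. The sign of Bax, Btg2, Cdkn1a and Zmat3 was not fixed, that of Zmat3 turning only with probes averaged (-0.16).

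**Figure D5:**
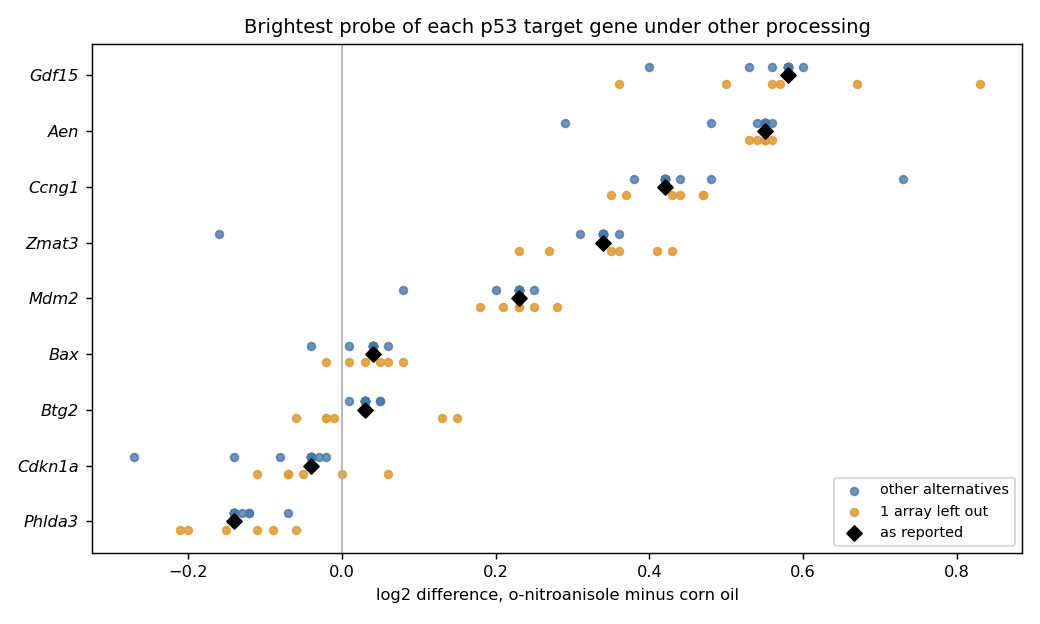
Log2 difference of the brightest probe of each p53 target gene as reported (black diamonds), with 1 array left out (orange) and under the other processing choices (blue). Values of Aen, Ccng1, Gdf15 and Mdm2 lie above 0 throughout, and the outlying blue points of Aen (0.29), Ccng1 (0.73), Zmat3 (-0.16) and Cdkn1a (-0.27) are from averaging all tested probes of the gene.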

How the data were processed

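Renal cortex RNA of 6 rats was measured on 6 one-colour arrays. The deposited scanner files hold spot intensities, background-subtracted and detrended within the array per the file headers; the submitters' processing notes name Agilent Feature Extraction 10.7. The deposited value table holds a linear ratio of each signal to the array's 75th percentile, uncentred (column medians 0.1012 to 0.1086); its corn oil columns match the scanner files in another order, and corn oil replicates are numbered here as in the scanner files. The array headers name build rn4, so no probe coordinates are given.

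Of 61657 non-control probes, 84 spike-in probes were left out. Accessions were named through a RefSeq gene table of assembly GRCr8 (27460 of 33356 matched). Each array's processed signals were divided by their 75th percentile and taken to log2, with outlier spots set to missing; no probe was saturated. The 41096 probes that all 3 arrays of either group marked as well above background were fitted singly with limma 3.58.1 in R 4.3.3 (lmFit, eBayes), group as the only term, with Benjamini-Hochberg adjustment at 0.05. The brightest tested probe stands for a gene in counts of genes. With 3 arrays per group, the number of arrays limits the precision. Alternatives changed the background, scaling, filter, probe summary, moderation, weights, source table, replicate block and arrays used. Normexp (offset 50) used the median signal, since the mean signal column is not used here. The fit was tested on simulated data.

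The members and lists were chosen with earlier results of these data known. All members were named; of the other lists, the highest and lowest 4 targets and 2 regulators, with Mdm4 and Gadd45a, except 2 listed genes that are counted but not reported here. Ddb2 was to be named and had no matched probe. Replicate numbers were checked for pairing: deviations of same-numbered arrays correlated at 0.08, 0.059 and 0.025, each under 0.1. Plots used Python 3.11.15, pandas 2.3.3 and matplotlib 3.10.9.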

Additional observations from a re-analysis of the deposited data

How the results depend on the processing

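With default moderation 0 probes passed in the main fit, and 0 also passed under median or quantile scaling, array weights, the value table, outlier spots kept, 1 brightest or averaged probe per gene, and either other filter on dim probes (none, or all 6 arrays). Normexp called 143 probes (97 higher, 46 lower), 1 of them a member probe, and trend and robust moderation 663 (513 higher, 150 lower), again 1 member probe; in both it was Aen. An adjusted p under 0.10 called 398 probes and 1 member probe. An unadjusted p under 0.05 called 7810 probes, 19% of all tested. Among them were 7 of the 17 member probes, all higher, and 4 of the 40 other target probes, 3 higher and 1 lower. Of the 28 regulator probes 1 was called, and it was lower. Leaving out 1 array at a time called 0 to 4 probes and 0 member probes; with trend and robust moderation it called 7, 76 and 57 probes without corn oil replicates 1, 2 and 3 and 39, 0 and 35 without o-nitroanisole replicates 1, 2 and 3, and 0 to 1 member probes. Aen then kept its call in 4 of 6 fits (adjusted p = 0.0421 to 0.0713), losing it without corn oil replicate 1 or o-nitroanisole replicate 2. Those trend and robust fits, the other thresholds and the block with the value table's numbering were chosen after seeing the data. The replicate block called 0 probes with either numbering and changed no call; the numbers are not shown to pair rats. The slide block was not run, since no slide held both groups. Of 162 single-gene values under the alternatives not added after seeing the data, 152 kept their direction and side of the threshold. Signs turned for Cdkn1a (-0.11 to 0.06 on leaving out 1 array, above 0 without o-nitroanisole replicate 3), Bax (-0.04 under normexp; -0.02 to 0.08 on leaving out 1 array, below 0 without corn oil replicate 1), Btg2 (-0.06 to 0.15 on leaving out 1 array, below 0 in 4 of 6 fits, the nearest to 0 at -0.0097) and Zmat3 (-0.16 with probes averaged), the same under trend and robust moderation for the first 3 when arrays were left out. Averaging brings in the dim second probe of Zmat3, which read 0.303 in corn oil replicate 2 and 0.0145 to 0.0297 elsewhere. The difference of that probe was -0.67, and 0.78 without that array. The cause of the other changes was not tested. Probes near background limit the dim probes of Zmat3 and Cdkn1a.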

Other observations

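Probes with 1 array far above the other 5 were counted after the second probes of Ccng1 and Zmat3 were seen. Of 41096 tested probes, 227 (0.552%) had 1 array over 4 times every other array. Among the p53 target probes there were 2 of 17, Ccng1 in o-nitroanisole replicate 1 and Zmat3 in corn oil replicate 2. Those arrays had few such probes, 5 and 10 in all, against 43 to 70 on each of the other 4 arrays. Among the regulators there was 1 of 28, Atm in corn oil replicate 3, and among the other targets 0 of 40. The spots concerned carried no outlier mark of Feature Extraction.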
